A study of Mus musculus with 13 samples.

Results

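Zinc-dependent histone deacetylase genes were followed in the duodenum of wild-type and K-Ras mutant mice on 3 diets. Of 9 listed genes (Hdac1, Hdac2, Hdac3, Hdac4, Hdac5, Hdac6, Hdac7, Hdac9 and Hdac11), 8 were measured, among 12393 genes in all. Each was read from the probe set that carries this 1 gene symbol and has the highest mean over the 13 arrays. Hdac4, Hdac8 and Hdac10 were not analysed here.

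Mice of mixed strain background were wild type (controls) or carried mutant K-Ras (called ViRas in the labels). The labels used here give neither the allele nor the tissue in which it is active. From 5 weeks of age and for 22 weeks they received normal diet, high-fat diet, or high-fat diet with butyrate, whose form and dose are not given in the sources used here. There were 2 wild-type and 3 mutant arrays for the normal diet, 2 of each genotype for the high-fat diet, and 1 wild-type and 3 mutant arrays for the high-fat diet with butyrate. Every array held total RNA of duodenum, and the authors deposited RMA levels in log2 units, so that a difference of 1 is a doubling.

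Histone deacetylases remove acetyl groups from histone tails and from other proteins, which in most settings goes with lower transcription of the genes they sit on. Gut bacteria make butyrate from fibre, and this short-chain fatty acid inhibits the class I and class IIa enzymes at the protein level and is reported to leave Hdac6 and Hdac10 largely untouched. Arrays measure the mRNA of the enzymes, not their activity. Hdac1 and Hdac2 are the catalytic subunits of the SIN3, NuRD and CoREST complexes, Hdac3 works in the NCoR and SMRT complex and is needed in intestinal epithelium, and class IIa enzymes are docked on MEF2 factors and moved out of the nucleus by kinases and Ywha adaptor proteins.

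Of all members Hdac2 varied most over the 13 arrays. Hdac5, like Hdac7 and Hdac11, gave differences of the opposite sign to Hdac2 for high-fat against normal diet and for butyrate added. For Hdac11 this holds only for the probe set used. Its other probe set had the signs of Hdac2, with -0.34 (wild type) and -0.15 (mutants) for high-fat against normal diet. With butyrate added it gave 0.09 and 0.03. For butyrate against normal diet in mutants the signs of Hdac2 and Hdac5 were the same. The sequences upstream of the start sites of Hdac2 and Hdac5 are shown. They are from RefSeq (GRCm38.p6), whose promoter table held 7 of the 9 listed genes. For Hdac2 the 30 bases next to the start site are given (chr10:36974514-36974543, plus strand), and for Hdac5 all 250 bases (chr11:102230173-102230422, minus strand), both 5′ to 3′ on the strand of the gene. Start sites are those of the promoter entries. The gene annotation starts Hdac2 further upstream, at 36974297, so its 30 bases and most of its 250-base window lie within the annotated gene. The Hdac5 window lies outside the annotated gene. Capitals mark matches to a GC box (GGGCGG) or a CCAAT box (CCAAT), all of them here on the opposite strand, as CCGCCC and ATTGG.
Hdac2: cgcagccccgCCGCCCggaggcctacccct
Hdac5: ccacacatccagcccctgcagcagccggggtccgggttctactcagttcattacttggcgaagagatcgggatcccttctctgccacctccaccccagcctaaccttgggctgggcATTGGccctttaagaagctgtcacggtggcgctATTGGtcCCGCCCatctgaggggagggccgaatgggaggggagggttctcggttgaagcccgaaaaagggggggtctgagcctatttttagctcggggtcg
The Hdac2 match to the GC box lay 20 to 15 bases upstream of the start site. In Hdac5 a GC box match lay 94 to 89 bases upstream, and CCAAT matches lay 134 to 130 and 101 to 97 bases upstream. On both strands, the GC box was found in 32.7% of all 32851 promoter windows, the CCAAT box in 33.8%, a TATA box (TATAAA) in 12.4% and the NRF1 motif in 3.7%. Neither gene's 250 bases held the TATA or NRF1 letters. CpG dinucleotides numbered 27 in the 250 bases of Hdac2 and 12 in those of Hdac5, against a median of 6 over all windows.

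Array medians lay between 6.04 and 6.14. Enterocyte markers averaged between 11.8 and 12.1 on every array, and the mean of 11 acinar pancreas genes ranged from 5.01 to 12.8. The identifiers of the arrays run in a separate series for each diet, so that diet and array series cannot be told apart, whereas genotypes are compared within a series. The 3′ minus 5′ difference of control probe sets follows RNA integrity and labelling. For actin it was 0.63 to 0.73 on normal diet, 0.20 to 0.42 on high-fat diet and 0.27 to 0.70 with butyrate. For Gapdh it was -0.09 to 0.02, -0.05 to 0.02 and -0.13 to 0.22 on the same diets, so these ranges overlapped. The part of RNA integrity or labelling in any diet result was not tested. In whole duodenum, fewer cells that express a gene and less of its RNA per cell cannot be told apart. Nothing besides the design text, which speaks of mice, says that replicates are separate animals.

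**Figure D1:**
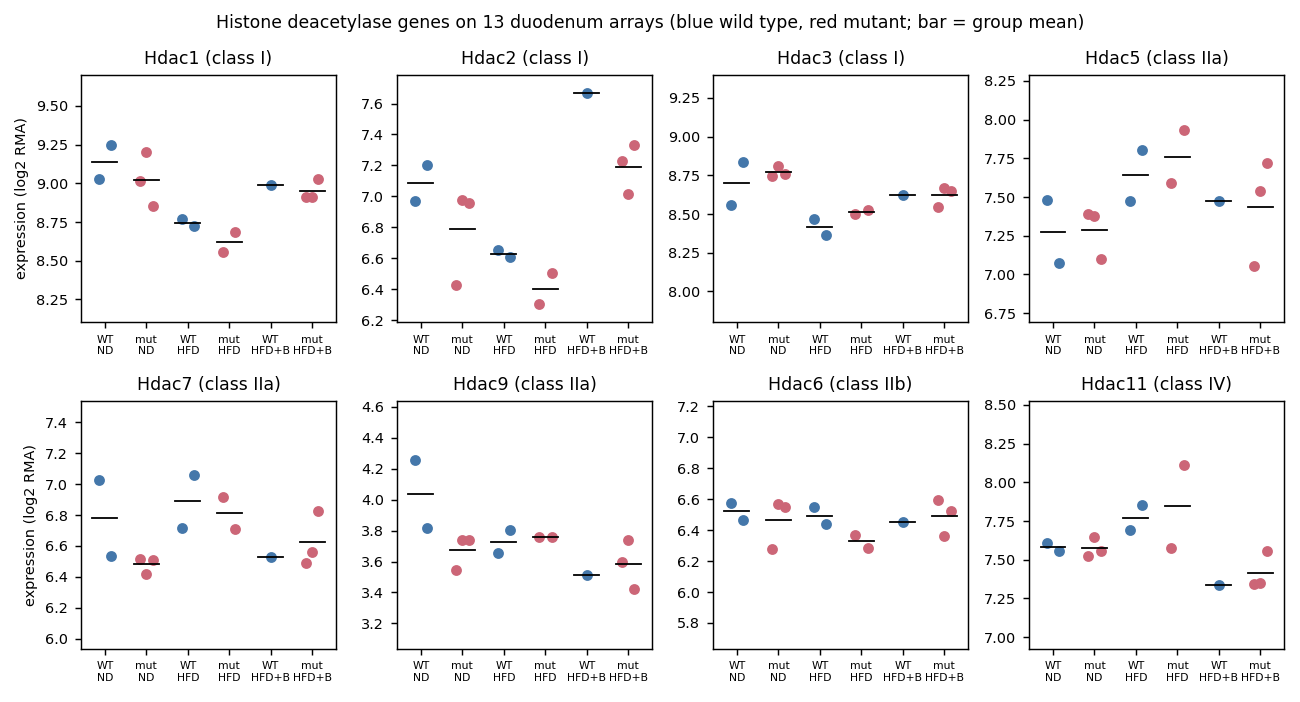
Expression (log2 RMA, vertical axis) of the 8 histone deacetylase genes in the 6 groups of genotype and diet (ND normal diet, HFD high-fat diet, HFD+B high-fat diet with butyrate). Each point is 1 array, blue wild type and red mutant, and each bar is the mean of a group. The highest and lowest Hdac2 arrays, at 7.67 and 6.30, are the wild-type butyrate array and a mutant high-fat array.

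Hdac2 was the class I gene with the widest range, and it was highest on high-fat diet with butyrate. On normal diet the wild-type arrays read 6.97 and 7.20 and the mutant arrays 6.43, 6.98 and 6.96. On high-fat diet they read 6.65 and 6.61 in wild type and 6.30 and 6.50 in mutants. With butyrate the wild-type array read 7.67 and the mutant arrays 7.23, 7.01 and 7.33. All 4 butyrate arrays therefore lay above all 4 high-fat arrays, while mutant normal-diet array 1 lay among the high-fat arrays. The share of all genes whose arrays separate by diet is not given here, for Hdac2 or the members below.

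In mutants Hdac2 rose when butyrate was added to the high-fat diet, from 6.40 ± 0.14 (SD, n = 2) to 7.19 ± 0.16 (SD, n = 3). The log2 difference was 0.79 ± 0.18 (SE), or 1.73-fold, with a limma adjusted p of 0.0091 over all genes. Without mutant high-fat array 1 the difference was 0.69 with adjusted p = 0.080. It was the 1 of 8 deacetylase genes called in this comparison, in which 21.7% of all genes were called, so the members were not called more often than genes at large.

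In wild type the difference was 1.04 ± 0.24 (SE), or 2.06-fold, with a limma adjusted p of 0.0153. It rests on a single butyrate array, which was assumed to vary like the other groups. Without wild-type high-fat array 2 the adjusted p was 0.0586, and with the arrays of these 2 groups alone it was 0.147. Again 1 of 8 members was called, against 14.7% of all genes. The difference of the butyrate effect between mutants and wild type was -0.25 (95% interval -0.90 to 0.39, adjusted p = 0.957).

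In the comparison of high-fat with normal diet Hdac2 read lower by -0.38 ± 0.18 (SE) in mutants (limma adjusted p = 0.159) and by -0.45 ± 0.19 in wild type (adjusted p = 0.156), neither past the threshold. Between high-fat diet with butyrate and normal diet in mutants the difference was 0.40 ± 0.16 (adjusted p = 0.219). In the order of group means, from the wild-type butyrate array down to mutants on high-fat diet, the largest gap was 0.48, between wild type and mutants with butyrate, against a within-group SD of 0.21. Mutants with butyrate and wild type on normal diet, and mutants on normal diet and wild type on high-fat diet, did not differ beyond that SD.

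Hdac1, which shares the SIN3, NuRD and CoREST complexes with Hdac2, was lowest on high-fat diet. In wild type the normal-diet arrays read 9.03 and 9.25, the high-fat arrays 8.77 and 8.72 and the butyrate array 8.99. In mutants, normal-diet arrays read 9.01, 9.20 and 8.86, high-fat arrays 8.56 and 8.69, and butyrate arrays 8.91, 8.91 and 9.03. The 4 high-fat arrays lay below each of the other 9 arrays. In a fit of both genotypes with genotype as a term, 29.2% of all genes were called between high-fat and normal diet. For butyrate added to high-fat diet 32.6% were called.

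In mutants Hdac1 fell on high-fat diet by 0.40 ± 0.12 (SE) on the log2 scale, or 1.32-fold, from 9.02 ± 0.17 (SD, n = 3) to 8.62 ± 0.09 (SD, n = 2), with a limma adjusted p of 0.0385. This call was lost without mutant high-fat array 1 (adjusted p = 0.213) or 2 (0.0871), without mutant normal-diet array 1 (0.0946) or 2 (0.123), and with the replicate number as a block (0.0606). Hdac1 was the 1 of 8 members called there, against 17.7% of all genes. In wild type the difference was -0.39 ± 0.13 (SE), adjusted p = 0.0748, and 0 of 8 members were called by limma against 11% of all genes, with 3 members (Hdac1, Hdac2 and Hdac3) at an unadjusted p under 0.05. Quantile normalization of the deposited values brought Hdac1 past the threshold in wild type.

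With butyrate added, Hdac1 read 0.33 ± 0.12 (SE) higher in mutants (limma adjusted p = 0.0712) and 0.24 ± 0.16 higher in wild type (adjusted p = 0.355). Between butyrate and normal diet in mutants the difference was -0.07 (95% interval -0.31 to 0.16), and there 0 of 8 members were called against 1.57% of all genes, with Hdac2 alone at an unadjusted p under 0.05. The gap between the butyrate and high-fat groups in the order of means was 0.20, against a within-group SD of 0.12. Mouse has a processed pseudogene close to Hdac1 in sequence, and the probe set may read both.

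Hdac3, the catalytic subunit of the NCoR and SMRT complex, had the narrowest range of the class I genes. In wild type the normal-diet arrays read 8.56 and 8.84, the high-fat arrays 8.47 and 8.37 and the butyrate array 8.62. Mutant arrays read 8.75, 8.81 and 8.76, then 8.50 and 8.53, then 8.55, 8.67 and 8.65. No high-fat array reached the lowest normal-diet array.
The difference of high-fat from normal diet was -0.26 ± 0.10 (SE) in mutants (limma adjusted p = 0.109) and -0.28 ± 0.11 in wild type (adjusted p = 0.136). Butyrate added to high-fat diet gave 0.11 ± 0.10 in mutants and 0.21 ± 0.14 in wild type, with adjusted p of 0.503 and 0.374. The suffix of the Hdac3 probe set marks probes that can match transcripts of other genes.

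**Figure D2:**
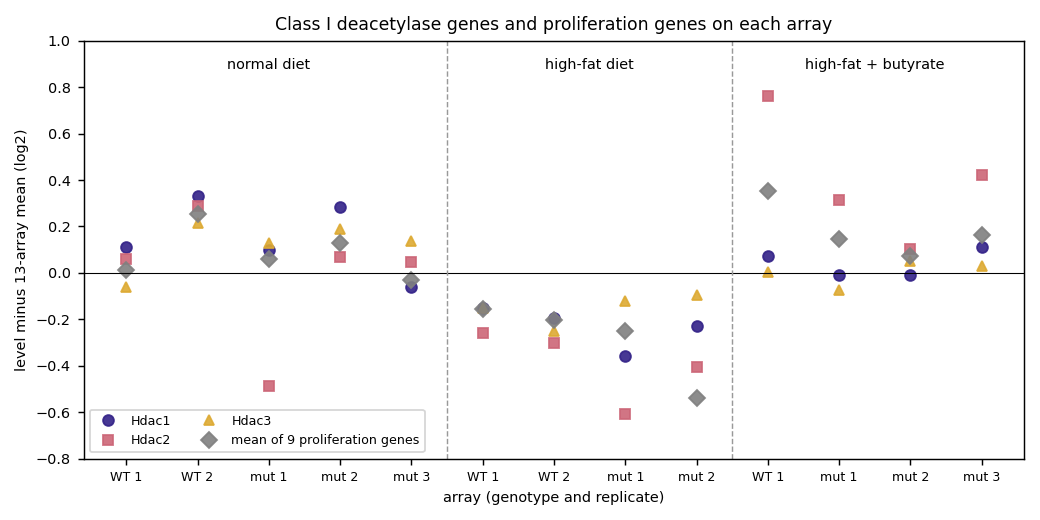
Level of Hdac1, Hdac2 and Hdac3 and the mean of 9 proliferation genes on each array, as the log2 difference from the mean of 13 arrays (vertical axis), with arrays ordered by diet (horizontal axis). On the 4 high-fat arrays all 4 measures lie below their mean.

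Genes of proliferating cells moved over the diets beside the class I genes. Their mean over 9 measured genes was 8.40 to 8.69 on normal diet, 7.89 to 8.28 on high-fat diet and 8.50 to 8.78 with butyrate. In mutants 4 of the 9 were lower on high-fat than on normal diet, against 17.7% of all genes called, and 5 of the 9 were higher with butyrate than on high-fat diet, against 21.7%. In wild type 1 of the 9 was lower on high-fat diet, against 11% of all genes, and 3 of the 9 were higher with butyrate, against 14.7%. These became 0 to 2 (0 without wild-type high-fat array 1) and 2 to 3 (2 without wild-type high-fat array 2) with an array left out. Leaving out an array in the mutant comparisons gave 1 to 5 and 2 to 5, with the fewest without mutant high-fat array 2 in both. The part of these cells in the Hdac1 and Hdac2 results was not tested.

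Because diets were compared in small groups, both genotypes were also fitted together with genotype as a term, a choice made after the data were seen. High-fat diet against normal diet then gave 4 of 8 members called, against 29.2% of all genes. Hdac1 fell by 0.40 ± 0.08 (SE) with limma adjusted p = 0.0028, and Hdac3 fell by 0.27 ± 0.07 with adjusted p = 0.0132, both with any 1 of the 13 arrays removed. Hdac2 fell by 0.42 ± 0.12 (adjusted p = 0.0209) but did not pass without array 2 of any of 3 groups (wild type on either diet, mutants on normal diet) or without mutant high-fat array 1, where the adjusted p was up to 0.0633. Hdac5, of class IIa, rose by 0.42 ± 0.14 (adjusted p = 0.0439) and passed in 4 of 13 such fits. Its adjusted p reached 0.152 without mutant high-fat array 2. Hdac7 passed as well without wild-type normal-diet array 1 (0.0268), and Hdac11 without mutant high-fat array 1 (0.0302).

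In the same model, butyrate added to high-fat diet gave 3 of 8 members called, against 32.6% of all genes. Hdac2 rose by 0.87 ± 0.13 (SE), 1.83-fold, with limma adjusted p = 0.00029, and passed with any 1 of the 13 arrays removed. Hdac1 rose by 0.30 ± 0.09 (adjusted p = 0.0184), though not without mutant high-fat array 1 (0.0706). Hdac11, by the probe set used, fell by 0.42 ± 0.11 (adjusted p = 0.0099), also with any 1 of the 13 arrays removed. Its other probe set was not fitted in this model, and in the fit of 6 groups it gave 0.03 in mutants and 0.09 in wild type. Between high-fat diet with butyrate and normal diet Hdac2 rose by 0.45 ± 0.12 (adjusted p = 0.0359), and was the 1 of 8 members called, against 10.5% of all genes. This call was lost without wild-type normal-diet array 1 (0.0600), mutant normal-diet array 1 (0.0734), the wild-type butyrate array (0.166), or mutant butyrate array 1 (0.0700) or 3 (0.0895). The high-fat arrays enter both of the first comparisons, so their values are not independent of each other.

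**Figure D3:**
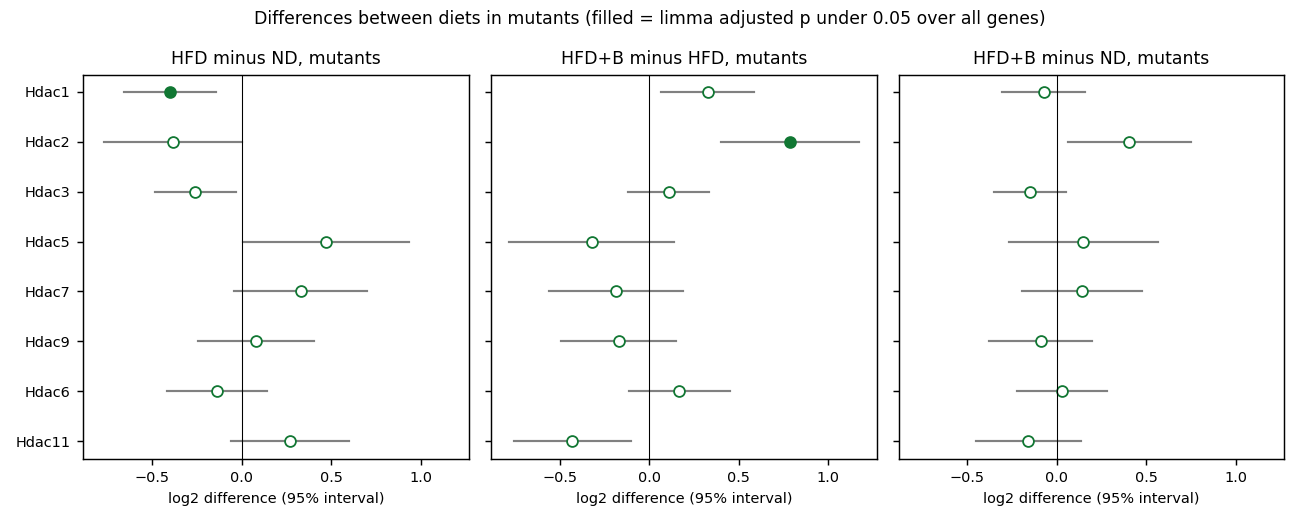
Log2 differences of the 8 genes between diets in mutants (horizontal axis), with 95% intervals as lines. Filled points passed a limma adjusted p of 0.05 over all genes: Hdac1 in high-fat against normal diet (left) and Hdac2 in butyrate added to high-fat diet (middle), with no filled point for butyrate against normal diet (right).

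Of class IIa, Hdac5 is best known from heart and muscle, where it represses MEF2 targets. Its arrays read 7.48 and 7.07 in wild type and 7.39, 7.37 and 7.10 in mutants on normal diet. On high-fat diet they read 7.48 and 7.80, and 7.59 and 7.93. With butyrate they read 7.48 in wild type and 7.05, 7.54 and 7.72 in mutants. The highest 2 arrays were high-fat arrays, but the other 2 high-fat arrays lay within the range of the butyrate arrays, and no adjacent group means differed beyond the within-group SD of 0.26. In mutants the difference of high-fat from normal diet was 0.47 ± 0.21 (SE), with limma adjusted p = 0.151, and butyrate added to high-fat diet gave -0.32 ± 0.21 (adjusted p = 0.312).

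Hdac7, known from endothelium and developing T cells, read 7.03 and 6.53 in wild type and 6.52, 6.42 and 6.51 in mutants on normal diet. On high-fat diet it read 6.72 and 7.06, and 6.92 and 6.71. With butyrate it read 6.53, and 6.49, 6.56 and 6.82. The groups overlapped, and no adjacent group means differed beyond the within-group SD of 0.20. The difference of high-fat from normal diet in mutants was 0.33 ± 0.17 (SE, limma adjusted p = 0.214), and that of butyrate added to high-fat diet was -0.19 ± 0.17 (adjusted p = 0.485).

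The other probe set of Hdac7, which the rule leaves out, gave -0.56 ± 0.16 (SE) for butyrate added to high-fat diet in mutants with limma adjusted p = 0.0272, where the probe set used did not pass. Its mutant arrays ran from 6.07 to 6.16 on high-fat diet and from 5.43 to 5.71 with butyrate. The endothelial marker list, of 8 measured genes, had a mean of 5.69 to 6.35 on mutant high-fat arrays and 5.53 to 6.0 on mutant butyrate arrays. In that comparison 1 of 8 was lower and 0 higher, against 21.7% of all genes called. The part of these cells in the Hdac7 values was not tested.

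Hdac9, which also has a short form without the catalytic domain, was the 1 member under the 30th percentile of mean level over all genes, and 7 of 8 members lay above it. Its arrays ran from 3.42 to 4.26, the highest being wild-type normal-diet array 1. In the genotype comparison on normal diet the mutants read lower by -0.36 ± 0.15 (SE), with unadjusted p = 0.0313 and limma adjusted p = 0.345. No diet comparison passed, with differences between -0.31 and 0.08.

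Hdac6, the class IIb enzyme that deacetylates tubulin in the cytoplasm, varied least of all 8, from 6.28 to 6.59. Its SD over all 13 arrays, 0.11, was no larger than its within-group SD of 0.12. The difference of butyrate from high-fat diet was 0.17 (95% interval -0.11 to 0.45) in mutants and -0.04 (-0.42 to 0.34) in wild type. Both intervals allow differences in either direction.

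Hdac11, the sole class IV member, removes long fatty acyl groups more readily than acetyl groups. In wild type the normal-diet arrays read 7.61 and 7.55, the high-fat arrays 7.69 and 7.85 and the butyrate array 7.34. Mutant arrays read 7.53, 7.65 and 7.55, then 7.58 and 8.11, then 7.35, 7.35 and 7.55. All butyrate arrays lay below all high-fat arrays, although mutant high-fat array 1 lay just above mutant butyrate array 3. In mutants butyrate added to high-fat diet gave -0.43 ± 0.15 (SE, limma adjusted p = 0.0616), which passed when dim genes were left out of the test. The other probe set of Hdac11 gave 0.03 ± 0.14 for the same difference, so the 2 probe sets did not give the same value.

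The genotype comparison asks whether mutant K-Ras alters these genes at a given diet. With diet as a term, 0 of 8 members passed in limma, against 1.02% of all genes, and Hdac2 alone had an unadjusted p under 0.05. Hdac2 read lower in mutants by -0.32 ± 0.11 (SE, 95% interval -0.55 to -0.09, unadjusted p = 0.0101, adjusted p = 0.148). The group means were lower in mutants in each diet, by -0.30 (normal), -0.23 (high-fat) and -0.48 (butyrate), with overlapping arrays on normal diet. The other 7 differences lay between -0.12 and 0.06.

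Within single diets 0 of 8 members passed as well. All genes were called at 0.0242% on normal diet, where Hdac9 alone had an unadjusted p under 0.05, at 0.0403% on high-fat diet and at 0% with butyrate, where 0 members had one. The genotype effect did not differ detectably between high-fat and normal diet (lowest limma adjusted p of a member 0.915) or the butyrate effect between genotypes (lowest 0.957), with 0 members and 0.00807% of all genes called in each and 0 members at an unadjusted p under 0.05. With 1 to 3 arrays a group, these intervals were wide.

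Genes that work with the deacetylases, and related genes, were set out in 11 lists of 101 genes. The list of Hdac8 and Hdac10 had no measured gene, and the other 10 lists had 79. In mutants 27 of the 79 passed when butyrate was added to the high-fat diet, 9 higher and 18 lower, or 34.2% against 21.7% of all genes. For high-fat against normal diet 22 passed, 11 higher and 11 lower, or 27.8% against 17.7% of all genes. With butyrate against normal diet 3 passed, all lower, or 3.8% against 1.57% of all genes, and between genotypes 0 passed over the 3 diets or within any of them (the lowest adjusted p over the diets was that of Hat1, 0.0785).

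The NuRD complex couples Hdac1 and Hdac2 to nucleosome remodelling. Of the 8 measured genes in its list, 6 were lower and 0 higher with butyrate added in mutants, against 21.7% of all genes called. The list median was -0.53, against 0.02 over all genes. The list leaves out Hdac1, Hdac2 and Rbbp7, which NuRD also uses. Of these, Hdac2 (0.79) and Rbbp7 (0.48) rose in this comparison, and Hdac1 read higher by 0.33 without passing. Leaving out an array left 2 to 4 lower, fewest without mutant high-fat array 1. Gatad2b, a scaffold subunit, read 7.13 and 7.19 on mutant high-fat arrays and 5.36 to 6.03 with butyrate, and fell by 1.45 ± 0.17 (SE) on the log2 scale with limma adjusted p = 0.00035. Gatad2a fell by 0.55 ± 0.09 (adjusted p = 0.0018), and both passed with every array left out. Mta3 fell by 0.51 ± 0.11 (adjusted p = 0.0084) and Mta1 by 0.68 ± 0.16 (adjusted p = 0.0111). With an array left out, the Mta3 call was lost in 1 of 5 fits, without mutant high-fat array 1 (0.0786). The Mta1 call was lost in 2 of 5 fits, with the highest adjusted p (0.0739) without mutant high-fat array 2.

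On high-fat against normal diet in mutants, 3 genes of the NuRD list rose and 1 fell, against 17.7% of all genes called. Hdac1 (-0.40), Rbbp7 (-0.59) and Rbbp4 (-0.52), which are outside the list, fell, though Rbbp4 passed in 0 of 5 fits with an array left out. Gatad2b rose by 1.14 ± 0.17 and Gatad2a by 0.70 ± 0.09, both with every array left out. Mta2 rose by 0.72 ± 0.18 (limma adjusted p = 0.0213) and Mbd2, which reads methylated DNA, fell by 0.48 ± 0.13 (adjusted p = 0.0283). Those calls passed in 1 and 0, respectively, of 5 fits with an array left out. The high-fat arrays are again shared with the butyrate comparison.

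**Figure D4:**
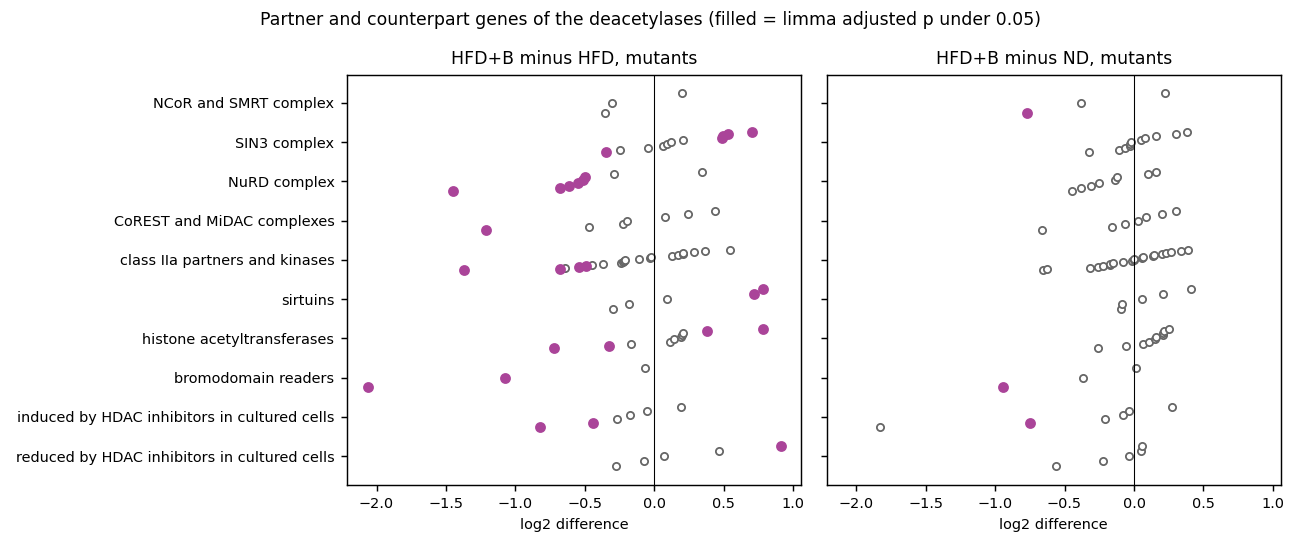
Log2 differences (horizontal axis) of 79 genes in 10 lists of partners and counterparts (rows), for butyrate added to high-fat diet (left) and high-fat diet with butyrate against normal diet (right) in mutants. Each point is 1 gene, filled where the limma adjusted p was under 0.05, and 27 points are filled on the left and 3 on the right.

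The SIN3 complex, the other main vehicle of Hdac1 and Hdac2, had 4 of 11 members higher and 1 lower with butyrate added in mutants. The list median was 0.12, and 21.7% of all genes were called in this comparison. Arid4b rose by 0.70 ± 0.12 (SE, limma adjusted p = 0.0024), with every array left out. Sap30 rose by 0.53 ± 0.14 and the histone chaperone Rbbp7, which NuRD uses too, by 0.48 ± 0.13, while Suds3 fell by 0.35 ± 0.09. The latter 3 were each lost in 2 or 3 of 5 fits with an array left out. On high-fat diet Rbbp7 fell by 0.59 ± 0.13, Rbbp4 by 0.52 ± 0.14 and Brms1 by 0.41 ± 0.12, and Suds3 rose by 0.33 ± 0.09, and with mutant high-fat array 1 left out none of the 11 passed in either direction.

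Of 3 measured NCoR and SMRT members none passed with butyrate added in mutants, where Tbl1x gave -0.36 ± 0.12 (limma adjusted p = 0.0570). Gps2, a small subunit beside Hdac3, was lowest with butyrate: its mutant arrays read 6.61 to 6.97 for normal diet, 6.32 and 6.34 for high fat, and 5.89 to 6.19 with butyrate. It fell by 0.46 ± 0.14 from normal to high-fat diet (adjusted p = 0.0375) and by 0.77 ± 0.12 from normal diet to high-fat diet with butyrate (adjusted p = 0.0137). These calls held in 1 of 5 and 3 of 6 fits with an array left out. In the CoREST and MiDAC list 1 of 7 was lower with butyrate added in mutants, against 21.7% of all genes called. This was Hmg20b (-1.21 ± 0.17, limma adjusted p = 0.00094). Rcor1 rose on high-fat diet by 0.40 ± 0.12 (1 of 5 fits with an array left out).

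Among 21 partners and kinases of class IIa enzymes, 4 were lower and 0 higher with butyrate added in mutants, against 21.7% of all genes called. The list was therefore not called more often than genes at large (list median -0.21). Mark2, a kinase reported to phosphorylate class IIa enzymes, read 9.76 and 10.01 on mutant high-fat arrays and 8.19 to 8.72 with butyrate. It fell by 1.37 ± 0.16 (SE, limma adjusted p = 0.0003). The adaptors Ywhae (-0.50 ± 0.09), Ywhaz (-0.55 ± 0.13) and Sfn (-0.68 ± 0.21) fell as well, in 5, 3 and 1 of 5 fits with an array left out. On high-fat diet Mark2 rose by 0.75 ± 0.16 and Ywhae by 0.34 ± 0.09, which passed in 4 and 1 of 5 such fits.

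Enzymes and readers of the same histone marks moved in both directions. Of 5 sirtuins, the NAD-dependent deacetylases, Sirt1 rose with butyrate by 0.78 ± 0.13 (SE, limma adjusted p = 0.0021) and Sirt3 by 0.72 ± 0.13 (adjusted p = 0.0029), both with every array left out, and Sirt3 fell on high-fat diet by 0.51 ± 0.13 (passing in 2 of 5 fits with an array left out). Of 10 histone acetyltransferases, Hat1 (0.78 ± 0.16) and Ncoa1 (0.38 ± 0.11) rose and Ncoa2 (-0.72 ± 0.19) and Kat7 (-0.32 ± 0.10) fell with butyrate, while on high-fat diet each gave a called difference of the opposite sign. None of these 8 calls held with every array left out in turn, and Ncoa2 was dim, with group means of 4.01 to 5.11 and a mean over all arrays under the 30th percentile of genes.

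Of 3 bromodomain readers, which bind acetylated histones, Brd2 gave the largest difference of the 79 listed genes when butyrate was added in mutants. Its mutant arrays read 7.63 to 8.19 for normal diet, 8.97 and 9.01 for high fat, and 6.46 to 7.22 with butyrate. Brd2 rose on high-fat diet by 1.12 ± 0.22 (SE) and fell with butyrate added by 2.06 ± 0.22 (limma adjusted p = 0.00017), both with every array left out. It was below normal diet too, by 0.94 ± 0.20 (adjusted p = 0.0418), though in 1 of 6 fits with an array left out. Brd3 fell with butyrate by 1.07 ± 0.17.

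A list of 7 genes known to be induced by deacetylase inhibitors in cultured cells had 6 measured members. With butyrate added in mutants 0 were higher and 2 lower, against 21.7% of all genes called. Cdkn1a, an inhibitor of the cell cycle, fell by 0.82 ± 0.20 (SE, limma adjusted p = 0.0129) and Cdkn2b by 0.45 ± 0.14 (adjusted p = 0.0464). With an array left out, the Cdkn1a call was lost in 1 of 5 fits, without mutant high-fat array 1 (0.104). The Cdkn2b call was lost in 3 of 5 fits, with the highest adjusted p (0.329) without mutant high-fat array 2. Cdkn2b was also lower than on normal diet (-0.75 ± 0.13, adjusted p = 0.0207, passing in 1 of 6 fits with an array left out). Of 5 genes known to be reduced by such inhibitors, Ccnd1 (cyclin D1) rose by 0.91 ± 0.27 with butyrate, passing in 1 of 5 such fits. On high-fat diet Ccnd1 (-0.85), Myc (-0.69) and Tyms (-0.63) fell, and each of these calls was lost in at least 4 of 5 fits. The Tyms probe set was dim, with group means of 2.67 to 3.56, under the 30th percentile of mean level over all genes (5.09).

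In wild type, with its single butyrate array, 23 of the 79 genes passed when butyrate was added, 10 higher and 13 lower, or 29.1% against 14.7% of all genes. With the arrays of these 2 groups alone limma called 0 of all genes, so that none of these calls was kept. Gatad2b (-1.54 ± 0.23 SE), Hmg20b (-1.47), Mark2 (-1.20), Brd2 (-1.76), Arid4b (0.94) and Sirt1 (0.92) passed with either wild-type high-fat array left out. High-fat against normal diet gave 15 of 79 in wild type, 12 higher and 3 lower, or 19% against 11% of all genes. Gatad2a (0.86 ± 0.10) was the 1 of the 15 to pass with every array left out.

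By the root mean square difference between centred log2 values over the 13 arrays, the genes most like Hdac2 were Nmnat3 (0.144), Enoph1 (0.155) and Nkiras1 (0.160), against an SD of 0.397 for Hdac2 itself. Nearest to Hdac5 (SD 0.273) were Rcor2 (0.113), Hmgxb3 (0.130) and Rhobtb2 (0.130). Nearest to Hdac7 (SD 0.215) were Ptprn (0.0951), Fgd1 (0.0994) and Foxl1 (0.0994). These 3 members had the largest SD of the 8.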

How the data were processed

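Per the submitters' processing notes, the deposited log2 values were made from the array scans with Affymetrix Expression Console 1.1 by RMA. The notes used here do not say whether the 3 array series were normalized together, and the sources used here give no genome build for the probe sets. Per the labels the kit was one for whole transcripts, while the probe set names are those of a 3′ array, so the labelling chemistry is uncertain. Control probe sets were dropped, probe sets with 1 gene symbol were kept, and the 1 with the highest mean stood for its gene.

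Two-sided tests were run in limma 3.58.1 under R 4.3.3 (eBayes with trend) on all 12393 genes, with Benjamini-Hochberg adjustment at 0.05 and all 13 arrays in 6 groups (7 residual degrees of freedom), or with terms for diet and genotype (9). The number of arrays limits precision. There were 11 comparisons. The procedure was tested on simulated data. Members and gene lists were chosen with earlier results of these data known. Named were all members, up to 4 called genes of each partner list and comparison or, with none called, at most the 1 with the smallest p, and the 3 genes most like each of the 3 members with the largest SD. Other genes whose values are given were among those named for another comparison. Alternatives were quantile normalization, leaving out dim genes, the mean of probe sets, no trend, array weights, compared arrays alone, the replicate number as a block and leaving out each array. At most 405 of 22690 probe sets were equal between any 2 arrays (within 0.0005), and all arrays were kept as distinct.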

Additional observations from a re-analysis of the deposited data

How the results depend on the processing

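Under all alternatives run, 0 members passed in the 4 genotype comparisons and in both differences of effects. The number of members called for high-fat against normal diet in wild type (0) became 1 with quantile normalization and 0 to 1 with an array left out (Hdac3, without wild-type normal-diet array 1). In mutants that number (1) became 0 to 1 with an array left out, and without mutant high-fat array 1 or normal-diet array 1 the member called was Hdac11 or Hdac2 in place of Hdac1. For butyrate added in mutants (1) it became 2 with dim genes left out and stayed at 1 to 1 with an array left out, though without mutant high-fat array 1 the member was Hdac11. For butyrate added in wild type (1) it became 0 with the compared arrays alone and 0 to 1 with an array left out. With both genotypes and genotype as a term, chosen after the data were seen, these numbers became 4, 4, 3 and 3, and 1 for butyrate against normal diet in mutants (0). Leaving out an array gave 2 to 5 members for high-fat against normal diet in that model, 2 to 3 for butyrate added and 0 to 1 for butyrate against normal diet. Hdac1 on high-fat diet in mutants ranged from -0.48 to -0.31 with an array left out. Hdac2 with butyrate ranged from 0.69 to 0.89 in mutants and from 1.02 to 1.06 in wild type. No value reversed, and the cause of the moved values was not tested beyond the fewer arrays or genes that the alternatives use.

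With the replicate number as a block, 0 members passed for high-fat against normal diet in mutants, Hdac1 giving -0.42 (limma adjusted p = 0.0606), while Hdac2 with butyrate kept its call (0.71, adjusted p = 0.0230). The numbers did not pair the arrays: over 21 pairs of same-numbered arrays the correlation of deviations ranged from -0.33 to 0.42, and 5 of 12 numbered arrays were closest to their own number. No block value exists for comparisons with the wild-type butyrate array, which has no number.

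Counts over all genes moved more. Genotype over the diets (127) ranged from 0 without the high-fat arrays to 574 without the butyrate arrays, with 5 when diets were weighted equally, 58 without trend, 221 with the block and 2 to 329 with an array left out. Genotype on normal diet (3) ranged from 0 to 174 and on high-fat diet (5) from 3 to 14. High-fat against normal diet in wild type (1368) ranged from 116 with compared arrays alone to 3615 with both genotypes, and in mutants (2197) from 990 with an array left out to 3615. Butyrate added (2685 in mutants, 1820 in wild type) ranged from 1317 with an array left out and 0 with compared arrays alone to 4035 with both genotypes. Butyrate against normal diet in mutants (195) ranged from 39 to 1307, and the 2 differences of effects (1 each) from 1 to 10 and 1 to 2.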

Other observations

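Marker lists of other cells of the duodenal wall were read for the same arrays. When butyrate was added to the high-fat diet in mutants, 2 of 6 macrophage markers were higher, against 21.7% of all genes called. In each of the lists of smooth muscle (6 measured), T and B cells (7) and enteric neurons and glia (6), 1 marker was lower. With an array left out, 0 to 2 macrophage markers were higher. The lower markers then numbered 0 to 1 for smooth muscle and for T and B cells, and stayed at 1 for neurons and glia. Between genotypes over the 3 diets, 1 of 6 macrophage markers was lower in mutants by limma, against 1.02% of all genes called. In that comparison 0 of the T and B cell, endothelial, smooth muscle and neuronal markers were called. The macrophage list averaged 7.87 to 7.99 in wild type and 7.30 to 7.58 in mutants on normal diet, and 7.72 to 7.92 and 6.80 to 7.32 on high-fat diet. With butyrate it averaged 7.82 in wild type and 7.33 to 7.82 in mutants, and its relation to the deacetylase genes was not tested.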
